A study of Mus musculus with 12 samples.

Results

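The small leucine-rich proteoglycans are secreted proteins of the extracellular matrix, and 9 of their genes were followed, listed by their names as members of the family and not by a threshold on any value: Dcn (decorin), Bgn (biglycan), Aspn (asporin), Fmod (fibromodulin), Lum (lumican), Prelp, Omd (osteomodulin), Ogn (osteoglycin) and Podn (podocan). Each was found by its symbol among the 54352 gene symbols of the count table, and all 9 passed the filter on low counts in each of the 5 comparisons. The data are bulk RNA-seq of primary adventitial fibroblasts of wild-type C57Bl/6 mice, which grew out of pieces of the outer layer of the aorta after the media had been pulled away. The ascending cultures came from the aortic root and ascending aorta, and the descending cultures from the thoracic aorta down to the renal arteries. At each site, 3 cultures received TGFβ at 10 ng/mL for 48 h and 3 received the solute alone, which gave 4 groups of 3 libraries: ascending control, ascending TGFβ, descending control and descending TGFβ. All cultures were grown in DMEM with 5% serum, carry the label batch 1 and are labelled with an age of 14 weeks. The study's text differs from place to place on the age of the mice and on the number of passages. The cells had left the vessel and its blood flow, which limits them as a model of the adventitia.

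The proteins of this family share a core of leucine-rich repeats that binds fibrillar collagen, and several of them set how thick collagen fibrils grow. Most carry glycosaminoglycan chains: chondroitin or dermatan sulfate on decorin and biglycan, keratan sulfate on fibromodulin, lumican and osteomodulin, and none on asporin. Decorin, biglycan and asporin can bind TGFβ, the factor applied here, and inherited loss of biglycan is a cause of thoracic aortic aneurysm.

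Between 16250126 and 23892943 reads per library were assigned to genes. Levels are given as normalized CPM, in which edgeR's TMM scaling aims to put the libraries on the same footing. A count of 3, taken as the floor of a library, lay between 0.117 and 0.207 normalized CPM (floors cover counting error only). A fold change is a log2 ratio of 2 groups with its standard error (SE), and a gene was called differentially expressed at an adjusted p under 0.05, from edgeR's two-sided quasi-likelihood F-test with Benjamini-Hochberg adjustment over all genes tested. Descending control replicate 3 stood apart from the other 11 libraries: it had counts on 13031 genes, against 19337 to 20931, and 11.02% of its counts were mitochondrial, against 0.703 to 1.03%. Leaving it out moved the log2 fold changes over all genes by a median of -0.0755 for TGFβ in descending fibroblasts. The median shift was -0.0827 between the sites in control and 0.0981 for the interaction of site and treatment. In ascending control replicate 2, all 6 macrophage and leukocyte markers had their highest level of the 12 libraries, and their summed level was 357 normalized CPM, against 54.5 and 57.7 in the other ascending controls. Results of the 9 genes that rest on either library are given with and without it. The 8 fibroblast markers were all above the floor, at a summed level of 14390 to 26260 normalized CPM, mostly Col1a1, Col1a2 and Col3a1. Endothelial markers summed to 4.02 to 27.1 and cardiomyocyte markers to 0.662 to 7.94. The smooth muscle list, at 1584 to 8388, consisted mainly of Acta2, which activated fibroblasts also express.

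Most of the family sits in neighbourhoods of related genes (GRCm38, GENCODE annotation). Aspn (chr13:49544443-49567565), Omd (chr13:49582462-49592822) and Ogn (chr13:49608046-49624501) follow each other on the plus strand, 14896 and 15223 bases apart, behind the related gene Ecm2, and all 3 lie within the span of Cenpp, a gene on the opposite strand. Dcn (chr10:97479609-97518143) and Lum (chr10:97565128-97572703) lie 46984 bases apart on the plus strand. Prelp (chr1:133910304-133921414, minus strand) and Fmod (chr1:134037254-134048277, plus strand) lie 115839 bases apart. Podn (chr4:108014791-108096445, minus strand) and Bgn (chrX:73483602-73495933, plus strand) stand apart from the other 7. The strand setting of the counting is not given in the sources used here. Prelp shares 350 exonic bases (9.68% of its exon length) with the antisense gene Gm15851, which had 0 to 4 counts per library, and 4.68% of the 50-base sequences of Omd also occur in other genes, mainly Vamp3, which had 1173 to 3317 counts per library against 32 to 111 for Omd in ascending fibroblasts.

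The 250 bases upstream of the 3 chromosome 13 genes are shown because of their differences between the sites. Aspn and Omd had the largest in control culture. Ogn was the member whose difference changed sign with TGFβ when all libraries were used. The windows are RefSeq sequences of GRCm38.p6, plus strand, written 5′ to 3′ with matches to TATAAA (either strand) in capitals.
Aspn, chr13:49544193-49544442: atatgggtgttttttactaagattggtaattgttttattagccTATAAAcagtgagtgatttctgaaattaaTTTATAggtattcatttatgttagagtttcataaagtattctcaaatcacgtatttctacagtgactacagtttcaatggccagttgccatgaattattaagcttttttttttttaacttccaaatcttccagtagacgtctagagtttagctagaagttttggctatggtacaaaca
Omd, chr13:49582212-49582461: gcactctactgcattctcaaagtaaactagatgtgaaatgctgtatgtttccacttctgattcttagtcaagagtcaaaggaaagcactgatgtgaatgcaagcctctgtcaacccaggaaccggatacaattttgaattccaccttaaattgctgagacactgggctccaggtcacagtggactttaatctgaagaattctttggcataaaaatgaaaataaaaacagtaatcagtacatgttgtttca
Ogn, chr13:49607765-49608014: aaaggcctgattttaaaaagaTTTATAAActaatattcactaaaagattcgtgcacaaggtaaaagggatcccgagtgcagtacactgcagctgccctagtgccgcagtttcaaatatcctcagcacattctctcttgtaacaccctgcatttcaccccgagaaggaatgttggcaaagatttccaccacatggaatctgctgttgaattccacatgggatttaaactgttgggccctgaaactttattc
Aspn had TATAAA at bases -207 to -202 and, on the other strand, at -178 to -173 from its start. In Ogn, 2 matches on opposite strands overlap each other between -229 and -222, and Omd had none. TATAAA occurs in 12.4% of the 32851 promoters of the same length in the table. None of the 3 windows held CAGAC (or GTCTG on the other strand), the core of a SMAD site, which occurs in 42.2% of those promoters, or TGANTCA, an AP-1 site, which occurs in 6.7%. CAGAC was present at -161 to -157 in Prelp and at 2 positions in Fmod, from -195 to -191 and from -148 to -144. The windows of Bgn and Podn held none of these letters. A match describes the sequence only. GC content was 30.0% in the Aspn window, 38.4% in that of Omd and 42.0% in that of Ogn.

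Compared per kilobase of exon, Bgn was the highest member in every group and every library, at a group mean of 990 to 1293 normalized CPM per kb, and ranked between 18 and 26 among 53647 genes by this measure. In ascending control, Prelp (229 normalized CPM per kb) and Ogn (141) came next, then Dcn (33.8) and Fmod (14.7). Fmod and the genes below it, Lum, Podn, Aspn and Omd, lay between 2.11 and 14.7 per kb, and each overlapped its neighbour in this order. The place of Lum rested on ascending control replicate 2, at 16.2 per kb: in the other ascending controls Lum was at 2.33 and 3.19 per kb, on either side of Podn (2.95 and 2.98) and below Fmod (13.9 and 14.2). In descending control, Ogn (318 per kb) came next to Bgn, followed by Prelp (171), Aspn (111), Omd (31.2) and Dcn (28.8), and from Prelp to Dcn each overlapped the next. Without descending control replicate 3, the descending control means were 219 for Ogn, 164 for Prelp, 53.3 for Aspn, 19.8 for Dcn and 15.6 for Omd. With TGFβ, Ogn and Prelp followed Bgn at both sites, at 53.7 and 51.3 per kb in ascending fibroblasts, where they overlapped, and at 34.5 and 22.6 in descending fibroblasts.

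**Figure D1:**
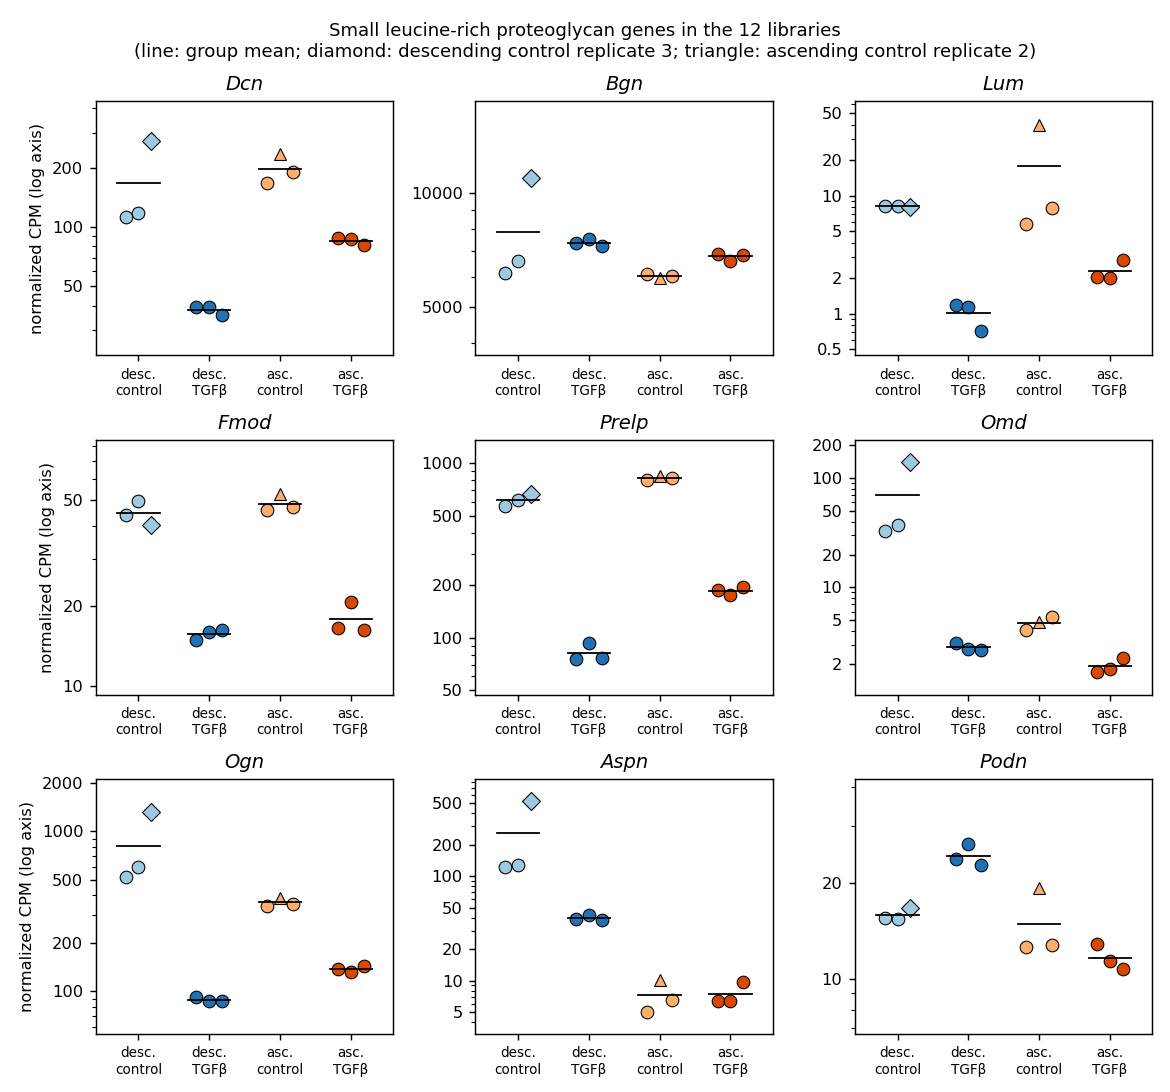
Normalized CPM on a log axis of the 9 genes in each of the 12 libraries, with 1 point per library and a line at each group mean. Descending control replicate 3 (diamond) is the highest library for Dcn, Bgn, Omd, Ogn and Aspn, and ascending control replicate 2 (triangle) for Lum, Fmod and Prelp.

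TGFβ against control was compared within each site, to ask how the family responded to the factor. In ascending fibroblasts 8 of the 9 genes were called, against 55.8% of the 13917 genes tested: Bgn rose, as 28.2% of all genes did, and 7 (Dcn, Lum, Fmod, Prelp, Omd, Ogn and Podn) fell, as 27.6% did. The median log2 fold change of the 9 was -1.32, beside -0.0044 over all genes tested. The groups did not overlap for 7 of the 9, against 61.3% of all genes. With 12 libraries in 1 fit, 5 of the 9 were called in ascending fibroblasts (6 at an unadjusted edgeR p under 0.05). Over all genes that fit called 2338, against 7767 in the main fit. In descending fibroblasts 6 of 9 were called, against 8.07% of 13825 genes, and all 6 fell (Dcn, Lum, Fmod, Prelp, Omd and Ogn), where 4.48% of all genes fell and 3.59% rose. The median there was -2.72, beside 0.02 over all genes, and 8 of the 9 did not overlap between the groups, against 43.5% of all genes. Without descending control replicate 3, all 9 were called, against 52.9% of 14311 genes, with 7 lower (26.3% of all genes) and 2 higher (26.6%), and a median of -1.65. Leaving out any 1 of the 3 descending TGFβ libraries kept the calls of Lum, Fmod and Prelp and lost those of Dcn, Omd and Ogn (edgeR adjusted p of 0.0742 to 0.148), and without descending control replicate 2 the call of Dcn was lost (0.0571). In bulk RNA, fewer cells of a type and less RNA per cell cannot be told apart.

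Dcn, which binds collagen and TGFβ and is the best studied member of the family, fell at both sites. Its level was 167, 234 and 190 normalized CPM in ascending control and 88.5, 86.6 and 81.1 with TGFβ. The descending controls were at 112, 119 and 273, and the TGFβ libraries at 39.5, 39.2 and 35.8. The highest value, 273, belonged to descending control replicate 3. The log2 fold change was -1.21 (SE 0.09; edgeR adjusted p = 2.81e-09) in ascending and -2.15 (SE 0.39; edgeR adjusted p = 0.0260) in descending fibroblasts. Without descending control replicate 3 the descending value was -1.59 (SE 0.06; edgeR adjusted p = 1.64e-19).

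Bgn, the closest relative of Dcn, moved little, and in ascending fibroblasts it moved in the other direction. Its level was 6112, 5957 and 6040 normalized CPM in ascending control and 6885, 6614 and 6868 with TGFβ. In descending fibroblasts it was 6144, 6583 and 10920 in control and 7353, 7549 and 7222 with TGFβ. The ascending groups did not overlap, and Bgn rose by 0.16 (SE 0.02; edgeR adjusted p = 9.17e-06), a 1.12-fold increase. In descending fibroblasts the log2 fold change was -0.11 (SE 0.24; edgeR adjusted p = 0.826) with all libraries and 0.22 (SE 0.05; edgeR adjusted p = 0.000200) without descending control replicate 3, so the direction rested on that library.

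Aspn, a relative of Dcn that has no chain and can hold back TGFβ signalling, had different values at the 2 sites. In ascending fibroblasts it was at 4.96, 10.2 and 6.53 normalized CPM in control and at 6.37, 6.34 and 9.65 with TGFβ. The descending controls were at 122, 129 and 531 and the TGFβ libraries at 39.2, 42.5 and 38.1. The ascending groups overlapped, and their log2 fold change was 0.05 (95% interval -0.42 to 0.52; edgeR adjusted p = 0.873). The descending groups did not overlap. Their log2 fold change was -2.72 (SE 0.64; edgeR adjusted p = 0.0583) with all libraries and -1.65 (SE 0.06; edgeR adjusted p = 5.74e-20) without descending control replicate 3.

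Fmod, which carries keratan sulfate and takes part in collagen cross-linking, fell at both sites. It lay at 45.8, 52.7 and 47.0 normalized CPM in ascending control and at 16.6, 20.7 and 16.3 with TGFβ. The descending controls were at 43.8, 49.9 and 40.2 and the descending TGFβ libraries at 14.9, 16.0 and 16.2. The groups did not overlap at either site. Its log2 fold change was -1.44 (SE 0.08; edgeR adjusted p = 1.63e-10) in ascending and -1.52 (SE 0.14; edgeR adjusted p = 0.00336) in descending fibroblasts. The difference between these responses was 0.07, with a 95% interval of -0.32 to 0.45.

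Lum, the keratan sulfate proteoglycan best known from the cornea, was a low gene whose ascending control level rested on 1 library. Its level was 5.70, 39.7 and 7.80 normalized CPM in ascending control and 2.04, 1.99 and 2.83 with TGFβ. In descending fibroblasts the controls were close together at 8.14, 8.11 and 8.07, and the TGFβ libraries were at 1.17, 1.14 and 0.709, from 15 to 23 counts. All TGFβ libraries were below all controls of their site. Lum fell by 2.95 (SE 0.58; edgeR adjusted p = 0.000382) in ascending fibroblasts, and by 1.56 (SE 0.20; edgeR adjusted p = 2.08e-07) without ascending control replicate 2, the library of the highest macrophage and leukocyte markers. The part of those cells in the level of Lum was not tested. In descending fibroblasts Lum fell by 3.01 (SE 0.30; edgeR adjusted p = 0.00410).

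Prelp, an arginine-rich member that anchors basement membranes to connective tissue, had the smallest adjusted p of the family at both sites when all libraries were used. That of Ogn was smaller in descending fibroblasts when control replicate 3 was left out (edgeR adjusted p of 9.21e-26 against 5.22e-25). Its level was 807, 850 and 827 normalized CPM in ascending control and 187, 175 and 195 with TGFβ. In descending fibroblasts it was 569, 618 and 662 in control and 75.6, 93.8 and 76.0 with TGFβ. Every TGFβ library was below every control library of its site. Prelp fell by 2.16 on the log2 scale (SE 0.04; edgeR adjusted p = 5.34e-17) in ascending, a 4.48-fold decrease. In descending fibroblasts it fell by 2.92 (SE 0.15; edgeR adjusted p = 0.000905), a 7.58-fold decrease, and without descending control replicate 3 by 2.86 (SE 0.06).

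Omd, a keratan sulfate proteoglycan of mineralized tissue, was among the low members in ascending fibroblasts. Its level was 4.04, 4.80 and 5.41 normalized CPM in ascending control and 1.67, 1.80 and 2.24 with TGFβ. In descending fibroblasts it was 33.0, 37.2 and 140.0 in control and 3.11, 2.71 and 2.70 with TGFβ. No TGFβ library reached a control of its site. Omd fell by 1.32 (SE 0.20; edgeR adjusted p = 3.28e-05) in ascending and by 4.63 (SE 0.69; edgeR adjusted p = 0.0151) in descending fibroblasts, and by 3.62 (SE 0.12; edgeR adjusted p = 3.64e-21) in the latter without replicate 3.

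Ogn, also called mimecan, fell at both sites. It lay at 343, 386 and 354 normalized CPM in ascending control and at 137, 132 and 144 with TGFβ. The descending controls were at 522, 600 and 1327 and the TGFβ libraries at 91.6, 87.2 and 86.8. Groups were separate at both sites, and descending control replicate 3 was the highest library. The log2 fold change was -1.39 (SE 0.04; edgeR adjusted p = 8.34e-14) in ascending fibroblasts. In descending fibroblasts it was -3.21 (SE 0.40; edgeR adjusted p = 0.00872), and -2.66 (SE 0.06) without replicate 3.

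Podn, which restrains the growth of smooth muscle cells, had log2 fold changes of opposite sign. Its level was 12.6, 19.2 and 12.7 normalized CPM in ascending control and 12.9, 11.4 and 10.8 with TGFβ. In descending fibroblasts it was 15.5, 15.4 and 16.7 in control and 23.7, 26.4 and 22.8 with TGFβ. The ascending groups overlapped. Podn fell there by 0.35 (SE 0.14; edgeR adjusted p = 0.0431), a call that was lost without ascending control replicate 2 (-0.13, edgeR adjusted p = 0.367), without ascending TGFβ replicate 2 (0.122) and without ascending TGFβ replicate 3 (0.158), and also with DESeq2 (0.0732) and limma voom (0.0644). In descending fibroblasts every TGFβ library was above every control, with a log2 fold change of 0.61 (SE 0.14; edgeR adjusted p = 0.0511) and, without replicate 3, of 0.65 (SE 0.09; edgeR adjusted p = 6.76e-07).

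**Figure D2:**
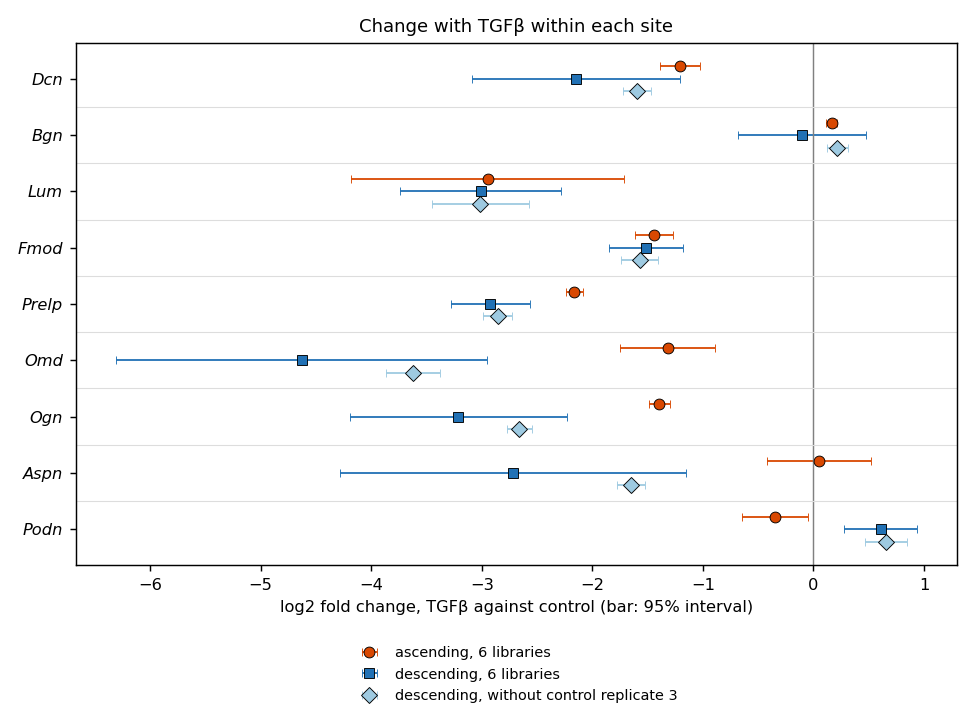
Log2 fold change of TGFβ against control for each gene in ascending fibroblasts (circles), descending fibroblasts (squares) and descending fibroblasts without control replicate 3 (diamonds), with bars for the 95% interval. Fmod lies at -1.44 and -1.52, while Omd, Ogn and Aspn lie further below 0 in descending fibroblasts.

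Whether the response differed between the sites was tested as the interaction of site and treatment over the 12 libraries, with positive values for a more positive change in ascending fibroblasts. Prelp was the single member called, at 0.76 (SE 0.14; edgeR adjusted p = 0.0352), where 0.806% of 14637 genes were called, 0.321% with a positive sign as here. Prelp fell at both sites, and by less in ascending fibroblasts. That call was kept in 3 of the 12 fits that left out 1 library, those without descending control replicate 1, descending control replicate 3 or descending TGFβ replicate 2, and was lost without any 1 of the other 9. Without descending control replicate 3, 6 of the 9 members were called, against 13.5% of 15013 genes, with 6.07% positive and 7.4% negative. The interaction was then 0.70 (SE 0.08) for Prelp, 2.31 (SE 0.225) for Omd, 1.27 (SE 0.08) for Ogn, 1.71 (SE 0.21) for Aspn and 0.39 (SE 0.12) for Dcn. For Podn it was -0.999 (SE 0.18). All 12 libraries gave the same signs, with 3.30 for Omd (edgeR adjusted p = 0.0720), 1.81 for Ogn (0.0727), 2.75 for Aspn (0.164), 0.93 for Dcn (0.487) and -0.96 for Podn (0.114). The interaction of Lum was 0.05 over 12 libraries and was not called. It was 0.07 (edgeR adjusted p = 0.974) without descending control replicate 3 alone and 1.44 (0.243) without ascending control replicate 2 alone. When both were left out, a setting added after seeing the data, it was 1.46 (SE 0.32; edgeR adjusted p = 0.00115).

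The sites were then compared without TGFβ, to ask which members differed by the origin of the cells. In control cultures 2 of the 9 were called, against 2.65% of 14090 genes, and both were lower in ascending fibroblasts, as 1.47% of all genes were. The groups did not overlap for 5 of the 9, against 35.3% of all genes. Aspn was 36.1-fold lower there, with a log2 difference of -5.17 (SE 0.78; edgeR adjusted p = 0.0311), and Omd was 14.7-fold lower, at -3.88 (SE 0.67; edgeR adjusted p = 0.0471). Both calls were lost when any 1 library other than descending control replicate 3 was left out (edgeR adjusted p of 0.0622 to 0.284), with log2 differences of -5.51 to -4.96 for Aspn and -4.22 to -3.78 for Omd. Without descending control replicate 3, 5 members were called, against 31.6% of 14644 genes. Aspn (-4.12), Omd (-2.88) and their neighbour Ogn (-0.62) were lower in ascending fibroblasts, as 15.2% of all genes were, while Dcn (0.78, SE 0.10) and Prelp (0.49, SE 0.04) were higher, as 16.4% were. With all libraries the differences were -1.18 for Ogn (SE 0.38; edgeR adjusted p = 0.248), 0.23 for Dcn (SE 0.39; edgeR adjusted p = 0.781), whose groups overlapped, and 0.43 for Prelp (SE 0.11; edgeR adjusted p = 0.140), and none of the 3 was called. Lum, Fmod, Podn and Bgn were not called in either fit. The difference of Lum turned from 1.13 (95% interval -0.72 to 2.99; edgeR adjusted p = 0.538) with all libraries to -0.26 (SE 0.27; edgeR adjusted p = 0.851) without ascending control replicate 2. Bgn had a difference of -0.38 with all libraries and -0.06 (95% interval -0.12 to -0.0029; edgeR adjusted p = 0.106) without descending control replicate 3.

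Markers of other cell types moved with these differences. The 4 adipocyte markers summed to 75.6 to 109 normalized CPM in descending control and to 4.09 to 14.6 in ascending control, and to 25.0 to 45.1 and 2.19 to 2.60 with TGFβ. All 4 were above the floor in some library of both control groups, and 2 were at or under it in every ascending TGFβ library. The 5 chondrocyte markers summed to 366 to 418 in descending control, 701 to 801 in descending TGFβ, 163 to 168 in ascending control and 289 to 321 in ascending TGFβ, with Cnmd at 0 in all 12 libraries and Acan at or under the floor in every descending library. Most of the chondrocyte sum was Col2a1, Sox9 and Comp, which did not move together. Col2a1 was at 124 to 161 in descending control and 563 to 642 in descending TGFβ. Comp was at 165, 175 and 109 in descending control and 56.7, 67.7 and 55.0 in descending TGFβ, and at 12.6 to 13.8 in ascending control and 6.77 to 8.10 in ascending TGFβ. Like Aspn and Omd, Comp was thus higher in descending than in ascending control and lower with TGFβ in descending fibroblasts. Some lists had their higher values in ascending fibroblasts. The 5 mesothelial markers summed to 33.5 to 44.2 there and to 6.90 to 13.1 in descending control (19.7 to 26.5 and 12.3 to 13.9 with TGFβ), with Upk3b at 29.0 to 37.1 against 0 to 1.60 and Wt1 at 0 in all 6 controls. Krt19, most of the descending sum, went the other way, at 3.41 to 4.17 in ascending and 6.90 to 11.8 in descending control, and at 3.41 to 3.85 and 11.1 to 13.3 with TGFβ. The 6 macrophage and leukocyte markers summed to 54.5 to 357 in ascending and 25.5 to 47.3 in descending control, and to 29.6 to 42.3 and 14.1 to 27.1 with TGFβ. In their sum, the 4 Schwann cell markers overlapped between the sites in control and not with TGFβ (21.4 to 25.9 in ascending and 14.8 to 24.8 in descending control, and 14.9 to 15.7 and 10.8 to 12.2 with TGFβ), with Sox10 at 1.70 to 2.88 in the ascending libraries and 0 in the descending ones. The 4 cardiomyocyte markers summed to 6.00 to 7.94 in ascending and 0.662 to 1.56 in descending control, mostly Tnnt2, with Myh6 at 0 in all 12 libraries. The smooth muscle list, mainly Acta2, summed to 2513 to 2559 in descending and 1584 to 1697 in ascending control, and to 7967 to 8388 and 5112 to 5199 with TGFβ. Cnn1, Tagln and Smtn were, like Acta2, higher with TGFβ at both sites. Myh11 was lower with TGFβ in ascending fibroblasts (23.2 to 25.5 in control, 12.5 to 17.7 with TGFβ). Des was lower with TGFβ at both sites, and higher in ascending (2.63 to 3.35) than in descending control (1.56 to 1.87). The 6 endothelial markers summed to 23.9 to 25.9 in descending and 23.9 to 27.1 in ascending control, and to 8.42 to 9.71 and 4.02 to 4.87 with TGFβ, mostly Tek, with Tie1 at 0 in all 12 libraries. Of the fibroblast list, Col1a1 and Col1a2 were higher with TGFβ at both sites, while Pdgfra, Thy1, Dpt and Fbln1 were lower. Col3a1 and Pcolce were lower in ascending fibroblasts and overlapped in descending ones, through descending control replicate 3 (1257 and 535.3). The other descending controls, at 1972 and 1974 for Col3a1 and 873.4 and 846.5 for Pcolce, were above all descending TGFβ libraries (1582 to 1680 and 773.9 to 829.7). Pdgfra was at 362.4 to 379.9 in descending control and 78.53 to 90.61 with TGFβ, and at 180.5 to 188.5 and 52.01 to 59.29 in ascending fibroblasts. The part of all these lists in the differences between the sites and with TGFβ was not tested.

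With TGFβ, 8 of the 9 members were called between the sites, against 36.3% of 13678 genes, with 4 higher (18.1% of all genes) and 4 lower (18.2%) in ascending fibroblasts. The groups did not overlap for any of the 9, against 46.1% of all genes. Dcn was 2.24-fold higher in ascending fibroblasts (log2 difference 1.17, SE 0.05; edgeR adjusted p = 9.38e-17), Prelp 2.28-fold (1.19, SE 0.06), Lum 2.28-fold (1.19, SE 0.29) and Ogn 1.56-fold (0.64, SE 0.04; edgeR adjusted p = 1.04e-12). Aspn was 5.34-fold lower (-2.42, SE 0.10; edgeR adjusted p = 1.74e-17), Podn 2.08-fold lower (-1.06, SE 0.09) and Bgn 1.08-fold lower (-0.12, SE 0.03). Omd was lower by 0.57 (SE 0.22; edgeR adjusted p = 0.0448), a call that held without ascending TGFβ replicate 3 and was lost without any 1 of the other 5 libraries, and also with DESeq2 (0.164) and limma voom (0.0505). Fmod, at 0.19 (95% interval -0.01 to 0.38; edgeR adjusted p = 0.128), was not called. Ogn thus lay on opposite sides of 0 in the 2 treatments, though it was not called in control with all libraries: all 3 ascending controls (343 to 386) were below all descending controls (522 to 1327), and all 3 ascending TGFβ libraries (132 to 144) were above all descending TGFβ libraries (86.8 to 91.6). The 3 neighbours on chromosome 13 therefore differed in sign with TGFβ, with Aspn and Omd lower and Ogn higher in ascending fibroblasts.

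**Figure D3:**
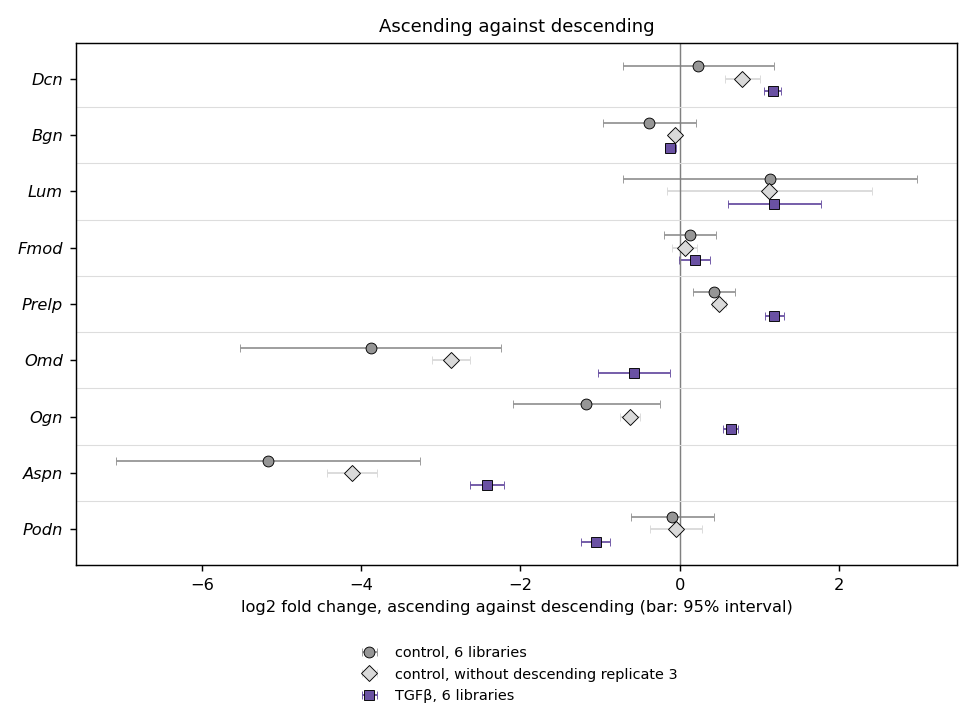
Log2 difference between ascending and descending fibroblasts for each gene in control (circles), in control without descending replicate 3 (diamonds) and with TGFβ (squares), with bars for the 95% interval and positive values for a higher level in ascending fibroblasts. Aspn lies furthest below 0 in both treatments (-5.17 and -2.42), and Ogn changes side.

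The make-up of the family shifted toward Bgn with TGFβ. Bgn held 67.6 to 71.0% of the summed normalized CPM per kb of the 9 genes in ascending control and 63.0 to 68.4% in descending control. With TGFβ its share was 89.1 to 89.5% in ascending and 92.7 to 93.0% in descending fibroblasts. The summed normalized CPM of the 8 other genes was 1391 to 1596 in ascending control and 436 to 462 with TGFβ, and 1425, 1576 and 2998 in descending control and 279 to 309 with TGFβ. Among these 8, Prelp was the largest per kb in ascending control and Ogn in descending control. The Aspn share of the 9 genes was 3.44, 3.51 and 7.92% in descending control, with the highest in replicate 3, 1.27 to 1.35% in descending TGFβ and 0.149 to 0.324% in the ascending libraries.

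**Figure D4:**
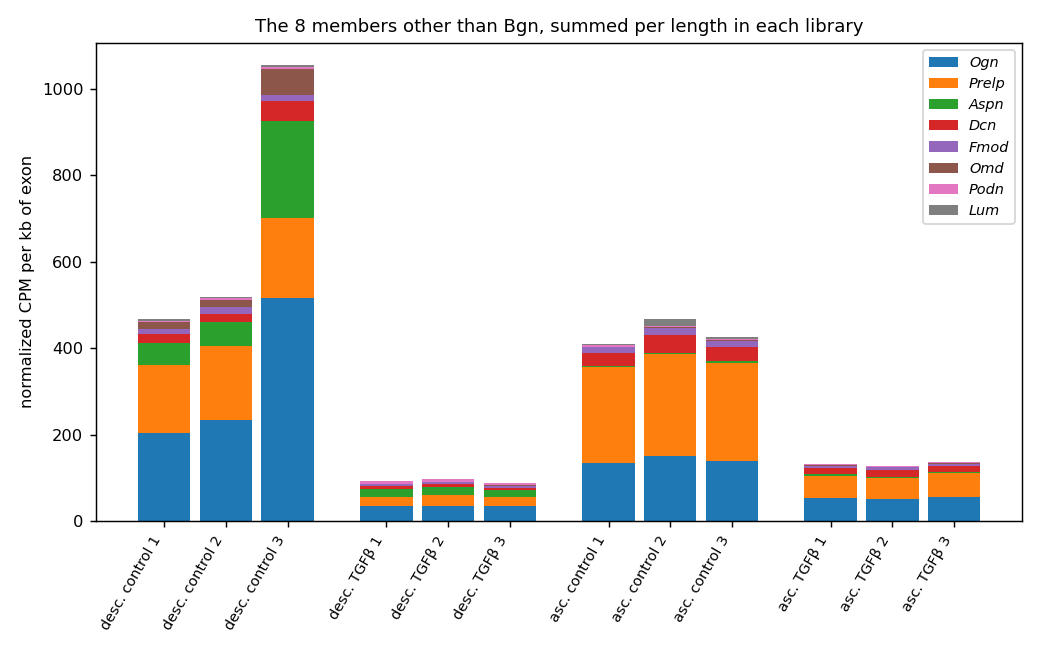
Summed normalized CPM per kilobase of exon of the 8 genes other than Bgn in each of the 12 libraries, stacked by gene from 0. The TGFβ libraries have the short bars at both sites, Prelp and Ogn make up most of each bar, and the Aspn segment is widest in the descending controls.

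The 9 remaining genes of the wider family were low, apart from Tsku (tsukushi). Kera (keratocan), the neighbour of Lum, had 0 counts in all 12 libraries, and Epyc (epiphycan) had 0 to 4 counts in the descending and 11 to 27 in the ascending libraries. Tsku rose with TGFβ by 1.00 (SE 0.05; edgeR adjusted p = 8.69e-11) in ascending and by 1.35 (SE 0.14; edgeR adjusted p = 0.00460) in descending fibroblasts. Of the 6 tested in ascending fibroblasts, Tsku and Epyc (0.87) rose, Optc (-0.84) fell and 3 were not called (3 of 6 called, against 55.8% of all genes). The calls of Epyc (edgeR adjusted p = 0.106) and Optc (0.0822) were lost without ascending control replicate 2. Of the 5 tested in descending fibroblasts, Tsku alone was called (20.0%, against 8.07%). When descending control replicate 3 was left out, Ecm2 (-1.37, SE 0.23) and Optc (-1.45, SE 0.43; edgeR adjusted p = 0.00546) were also called there (3 of 5, against 52.9% of all genes). Ecm2, which precedes Aspn on chromosome 13, was at 2.85 ± 0.41 normalized CPM in ascending control and 8.03 ± 5.43 in descending control (SD, n = 3), and was not called between them (log2 difference -1.49; edgeR adjusted p = 0.283). Leaving out descending control replicate 3 gave a mean of 4.91 in descending control and a log2 difference of -0.77 (SE 0.20; edgeR adjusted p = 0.00841).

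The enzymes that build the sugar chains moved in both directions. These and the following lists were chosen with results of these data known. No test of a list as a whole was run: the counts describe the list. Each adjusted p belongs to a single named gene in the fit over all genes. Over all genes tested, 55.8% were called in ascending fibroblasts and 8.07% in descending fibroblasts, or 52.9% without descending control replicate 3. Of the 7 genes that build the chain linker, 4 (57.1%) rose in ascending fibroblasts, led by B4galt7 (0.86), and 0 of 7 were called in descending fibroblasts with edgeR or DESeq2 (1 at an unadjusted edgeR p under 0.05), against 4 higher and 2 lower with limma voom or, in edgeR, without descending control replicate 3. Of 15 tested genes for chondroitin and dermatan sulfate, 9 rose and 4 fell in ascending (86.7% called), and 5 rose and 1 fell in descending fibroblasts (40.0%, and 8 of 16 higher and 6 lower without that library, 87.5%). Chst11, which adds sulfate to chondroitin, rose by 2.81 (SE 0.05; edgeR adjusted p = 1.00e-16) in ascending and by 1.76 (SE 0.17; edgeR adjusted p = 0.00379) in descending fibroblasts, and its interaction was called (1.05, SE 0.16; edgeR adjusted p = 0.0182), though not without ascending control replicate 2 (0.0650). The chondroitin synthases Chsy1 (1.29 and 1.03) and Chsy3 (1.44 and 1.15) rose at both sites, as did the sulfotransferase Chst15 (0.60 and 1.49). Chst3 fell in ascending fibroblasts (-1.06), and Csgalnact1, which starts the chain, fell at both sites (-0.93 and -0.81). Chst3 was not tested in descending fibroblasts with all libraries. Its log2 fold change there was -2.11 (edgeR adjusted p = 0.00101) without descending control replicate 3. Of 6 tested keratan sulfate genes, Chst5 (0 to 3 counts in control and 27 to 38 with TGFβ) and Chst2 (0.97) rose in ascending fibroblasts, and 2 fell (66.7% called). Chst5 and Chst2 were not called in descending fibroblasts with all libraries (3.02 and 0.04). Both rose there without descending control replicate 3 (2.58 and 0.34). Chst1, a keratan sulfate sulfotransferase, fell in ascending (-2.36) and descending (-1.999) fibroblasts, and was the single gene of the 6 called in the latter (16.7%, and 4 higher and 1 lower, 83.3%, without descending control replicate 3). Papss2, which makes the sulfate donor, rose by 0.97 in ascending fibroblasts, where 4 of 7 genes of its list rose and 2 fell (85.7% called). In descending fibroblasts 0 of those 7 were called with edgeR or DESeq2 (1 at an unadjusted edgeR p under 0.05), against 2 higher and 2 lower with limma voom and, in edgeR without descending control replicate 3, 3 higher and 2 lower. The descending log2 fold change of Papss2 was 0.51 with all libraries and 1.25 (edgeR adjusted p = 5.58e-18) without that library.

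The fibril collagens, to which these proteins bind, mostly rose with TGFβ. Of 11, 7 rose and 3 fell in ascending (90.9% called, against 55.8% of all genes), and 6 rose in descending fibroblasts (54.5%, against 8.07%). When descending control replicate 3 was left out, 8 were higher and 3 lower there, against 52.9% of all genes called. Col2a1 rose by 1.48 in ascending and 2.05 in descending fibroblasts, Col11a1 by 1.73 and 1.63, Col12a1 by 1.50 and 1.34, and Col5a2 by 1.02 and 1.55. The interaction of Col5a2 was called, at -0.53 (SE 0.10; edgeR adjusted p = 0.0339), though not without ascending control replicate 2 (0.0869). Col14a1 (-2.28), Col5a3 (-1.26) and Col3a1 (-0.997) fell in ascending fibroblasts. In descending fibroblasts none of these was called with all libraries, at -1.81, -1.20 and -0.08. Without descending control replicate 3 they were called lower there, at -2.14, -1.45 and -0.26. Of 14 receptors and ligands linked to the family, Tgfb1 rose at both sites (1.40 in ascending and 1.99 in descending). Met, a receptor that decorin can bind, fell at both (-1.68 and -2.02), as did Tlr4 (-0.67 and -0.81), a receptor for soluble biglycan. Cd44, a hyaluronan receptor, rose (1.19) and Cd14, a partner of Tlr4, fell (-0.93) in ascending fibroblasts, and Tgfb3 rose in descending fibroblasts (0.99). Cd44 (0.31) and Cd14 (-1.04) were not called in descending fibroblasts with all libraries. Both were called there without descending control replicate 3 (0.54 and -1.13). The interaction of Tgfb3 was called, at -1.08 (SE 0.12; edgeR adjusted p = 0.00411), where 0.806% of all genes were. In all, 5 of these 14 rose and 4 fell in ascending (64.3% called, near the 55.8% of all genes), and 2 rose and 2 fell in descending fibroblasts (28.6%, and 6 and 3, 64.3%, without descending control replicate 3). Of the proteases, Tll1, which can cleave the biglycan propeptide, rose by 1.60 and 1.89. Mmp12, the macrophage elastase, fell by 3.58 in ascending fibroblasts, and by 1.45 (SE 0.31; edgeR adjusted p = 0.000212) without ascending control replicate 2, the library of the highest macrophage markers. Mmp3 fell by 1.66 there, Adamts5 by 0.80 in ascending and 0.60 in descending fibroblasts, and Htra1 by 0.25 and 0.65. The descending log2 fold change of Mmp3 was -0.53 with all libraries and not called. It was -1.09 (edgeR adjusted p = 2.04e-05) without descending control replicate 3. Of 10 tested proteases 3 rose and 4 fell in ascending fibroblasts (70.0% called, against 55.8% of all genes), and of 9 tested 1 rose and 2 fell in descending fibroblasts (33.3%, and 3 and 4 of 10, 70.0%, without descending control replicate 3). Between the sites with TGFβ, all 11 fibril collagens were called, against 36.3% of all genes, 3 higher and 8 lower in ascending fibroblasts, with Col14a1 (4.12) and Col2a1 (-1.87) the largest in each direction.

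Across the libraries, the genes with the pattern most like each member were found by Pearson's r of log2 CPM over the 11 libraries other than descending control replicate 3. The libraries fall into 4 groups, so these values mostly repeat the group means and are given as a description. For Prelp the most similar were Tlr4 (r = 0.997 over 11 and 0.990 over 12 libraries) and Serping1 (0.997 and 0.997). Ogn was most like Il4ra (0.996 and 0.824) and C1galt1 (0.994 and 0.995), and Omd most like Idi1 (0.994 and 0.974) and Marcks (0.992 and 0.971). Aspn was most like Spp1 (0.991 and 0.973) and Gpx3 (0.991 and 0.994). For Dcn they were Ntn1 (0.992 and 0.805) and Osmr (0.992 and 0.859), and for Fmod Cgnl1 (0.992 and 0.930) and Icam1 (0.990 and 0.848). Bgn was most like Pdia4 (0.982 and 0.834) and Lins1 (0.975 and 0.722), Lum most like Bglap2 (0.974 and 0.757) and Entpd2 (0.967 and 0.497), and Podn most like Setbp1 (0.962 and 0.532) and Lrg1 (0.950 and 0.867). Within the family, Prelp had an r of 0.959 with Dcn, 0.954 with Fmod and 0.941 with Ogn, and of -0.943 with Bgn over the 11 libraries. Over 12 libraries these were 0.942, 0.956, 0.881 and -0.216, so the value with Bgn rested on leaving out descending control replicate 3. Aspn had its highest r with its neighbour Omd (0.704 over 11 and 0.833 over 12 libraries), and 0.156 and 0.480 with Ogn.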

How the data were processed

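RNA of 12 cultures of adventitial fibroblasts was sequenced as paired-end reads. The authors aligned reads to mm10 with STAR and deposited raw counts per gene symbol from featureCounts, without normalization. The samples were grouped by site and treatment from their titles. Counts were tested as deposited with edgeR 4.0.16 in R 4.3.3 (quasi-likelihood F-test, TMM, filterByExpr at its default minimum count, 10, and total, 15), in 4 comparisons of 6 libraries and 1 interaction over 12. The SE was the size of the log2 fold change divided by the square root of F. Alternatives were DESeq2 1.42.0, limma 3.58.1 (voom with quality weights), DESeq2's size factors, other filters, the replicate number as a block, 12 libraries in 1 fit, and each library left out. The fits were tested on simulated counts with the same spread in all libraries. Those data held no library like descending control replicate 3. Log2 CPM used a prior count of 2. Lengths were exon unions of GENCODE vM21 (GRCm38), and figures were drawn with matplotlib 3.10.9.

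The 9 genes were a given list, and members and lists were chosen with earlier results of these data known. Named were all 9, up to 4 called genes per direction of each pathway list in the comparisons described for it, largest change first, and the 2 genes most like each member. Nothing in the sources used here says whether the 3 cultures of a group came from separate animals, so p-values measure the spread between these cultures, which may be technical. Promoter sequences were matched by symbol for 7 of 9 genes.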

Additional observations from a re-analysis of the deposited data

Results flagged for a closer look

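The response of Prelp to TGFβ differed between the sites by a test of the difference itself: the interaction was 0.76 on the log2 scale (ascending minus descending; edgeR adjusted p = 0.0352). The log2 fold changes were -2.16 in ascending and -2.92 in descending fibroblasts, with all 3 TGFβ libraries below all 3 controls at each site. Over 18 alternative settings the difference was 0.70 to 0.86, its adjusted p ranged from 5.28e-07 to 0.135, and it was called in 7. In a further setting it was also called, at 0.72 (edgeR adjusted p = 5.05e-08), without descending control replicate 3 and ascending control replicate 2, a setting added after seeing the data. The explanation of the difference was not tested.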

How the results depend on the processing

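Of 648 member values recomputed under the alternatives, 525 kept their direction and their side of the threshold, 59 lost and 45 gained a call, and 19 changed direction. Of these 19, 2 were called under the alternative, both Bgn with TGFβ in descending fibroblasts, at 0.20 with limma voom and 0.22 without descending control replicate 3 (-0.25 to 0.22 over the libraries left out in turn). The other 17 were called in neither fit. They were the interaction of Bgn (0.27 with all libraries; -0.031 with limma voom, -0.047 to 0.42 without single libraries and -0.056 without descending control replicate 3 and ascending control replicate 2), Lum between the sites in control (1.13; -0.26 to 1.56 without single libraries and -0.27 without both), Fmod between the sites in control (0.12; 0.06 to 0.21 without single libraries and -0.0029 without both) and, over single libraries left out, Aspn with TGFβ in ascending fibroblasts (-0.18 to 0.38), Podn between the sites in control (-0.32 to 0.014) and the interactions of Lum (-0.37 to 1.44, and 1.46 without both) and Fmod (-0.058 to 0.13). In ascending fibroblasts 5 members were called with 12 libraries in 1 fit. In descending fibroblasts leaving out single libraries gave 3 to 9. Between the sites in control, 5 were called with limma voom, 4 with 12 libraries in 1 fit, 0 to 5 without single libraries (3 or more at an unadjusted edgeR p under 0.05 in each), and 5 without descending control replicate 3 and ascending control replicate 2, a setting added after seeing the data. Between the sites with TGFβ, 4 were called with 12 libraries in 1 fit. For the interaction, DESeq2 called 5, limma voom 6, edgeR without a filter 0 (6 at an unadjusted p under 0.05), the fits without single libraries 0 to 6, and the fit without both libraries 7. The cause of these shifts was not tested. Over all genes, the ascending TGFβ count of 7767 ranged from 2338 with 12 libraries in 1 fit to 8005 without a filter, the count of 4963 between the sites with TGFβ from 1106 with 12 libraries in 1 fit to 5056 with the block, and the count of 374 between the sites in control from 0 with edgeR and the block (1235 at an unadjusted p under 0.05; 1034 with DESeq2 and 4392 with limma voom, both without the block) to 4631 without descending control replicate 3. The descending TGFβ count of 1115 ranged from 95 with the block to 7576 without descending control replicate 3, and the interaction count of 118 from 25 without ascending TGFβ replicate 3 to 2022 without descending control replicate 3.

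No pairing by replicate number was seen in deviations from the group mean. The 18 correlations between same-numbered libraries lay between -0.026 and 0.088, and those between different numbers between -0.093 and 0.073. With 3 libraries per group these values cannot exclude a pairing. With the replicate number as a block, edgeR called 8 members in ascending, 1 in descending, 0 between the sites in control (4 at an unadjusted p under 0.05), 7 between the sites with TGFβ and 0 for the interaction (5 unadjusted). Low counts limit Lum with TGFβ (15 to 58 counts) and Omd in ascending fibroblasts (32 to 111).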
